A study of Homo sapiens with 6 samples.

Results

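AATK, GRB2 and RPTOR are 3 genes of signal transduction, chosen by gene name from the deposited tables, and they are 3 of the 17721 gene identifiers listed there. AATK encodes a membrane-anchored kinase, also called LMTK1, that was named for its induction during apoptosis of mouse myeloid precursor cells and that binds the CDK5 activator p35 and acts on recycling endosomes in neurons. GRB2 encodes an adaptor with an SH2 domain between a pair of SH3 domains, which binds phosphotyrosine on activated receptors and brings the exchange factors SOS1 and SOS2 to RAS. RPTOR encodes raptor, the scaffold that defines mTOR complex 1 (mTORC1) and presents substrates such as S6 kinase and the 4E-BP proteins to the mTOR kinase, linking nutrients and growth factors to translation and autophagy.

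The series was made in U2OS, an established human osteosarcoma cell line. Its labels give 6 RNA samples: 1 input and 2 co-immunoprecipitates from DNMT1 knockdown cells (shDNMT1), and 1 input and 2 co-immunoprecipitates from shNC cells, whose genotype is given as WT. The precipitated protein was a mutant of NSun2, an RNA cytosine methyltransferase, and per the protocol its plasmid was put into the shDNMT1 cells and into U2OS cells named U6. DNMT1, the maintenance DNA methyltransferase, was the gene targeted by the short hairpin. The values came from 2 tables of FPKM, a level in which fragments are scaled to transcript length and to library size. Each gene had 1 value per table, and no column said which library, condition or precipitate it came from. They are called the larger table (16824 identifiers) and the smaller table (15167 identifiers). These names stand for no condition, so shDNMT1 was not compared with shNC, nor precipitate with input. There were no replicates, no SD and no test, the absolute depth was unknown, and every difference below is a description of these tables.

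Facts of the whole tables set the scale. The 14270 identifiers in both had a median log2 ratio of larger over smaller of 0.05 on the log2(FPKM + 1) scale, which understates the differences of low genes. DNMT1 was listed at 9.36 and 23.3 FPKM in the larger and smaller table, and NSUN2 at 1147 and 559 FPKM, and neither value was used to assign a condition. Of 10 osteosarcoma and mesenchymal markers, 6 and 3 had a row, and COL1A2, SPP1, IBSP and SP7 had none. Of the 3 in both tables, vimentin (VIM) was higher in the larger, at 407 and 262 FPKM. COL1A1 (0.45 and 3.04 FPKM) and ALPL (38.0 and 78.4 FPKM) were more than 2-fold lower there. Of 12 markers of epithelial, blood, endothelial and neural cells, 6 and 4 had a row, summing to 2.59 and 11.6 FPKM. Nearly all of that sum in the smaller table was E-cadherin (CDH1), at 0.39 FPKM in the larger table and 8.42 FPKM in the smaller, and EPCAM, at 0.55 and 2.20 FPKM. Their part in the values below was not tested.

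The 3 genes lie on the long arm of chromosome 17 (hg38, positions counted from 1). In RefSeq (GRCh38.p14), GRB2 spans 75318076 to 75405678 on the minus strand and RPTOR spans 80544838 to 80966368 on the plus strand. AATK spans 81117295 to 81166221 on the minus strand, and its interval holds the miRNA genes MIR338, MIR657, MIR1250 and, on the opposite strand, MIR3065. RPTOR and AATK are thus 151 kb apart, while 5.14 Mb separate GRB2 from RPTOR. The genes differ in span, with 422 kb for RPTOR, 87.6 kb for GRB2 and 48.9 kb for AATK.

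The promoter windows are shown because CpG dinucleotides are the substrate of DNMT1, the enzyme varied in the series. Each is a RefSeq window from 250 bases before to 50 bases after an annotated start, read 5′ to 3′ on the gene's strand, with every CG in capitals. CG reads the same on both strands.
AATK: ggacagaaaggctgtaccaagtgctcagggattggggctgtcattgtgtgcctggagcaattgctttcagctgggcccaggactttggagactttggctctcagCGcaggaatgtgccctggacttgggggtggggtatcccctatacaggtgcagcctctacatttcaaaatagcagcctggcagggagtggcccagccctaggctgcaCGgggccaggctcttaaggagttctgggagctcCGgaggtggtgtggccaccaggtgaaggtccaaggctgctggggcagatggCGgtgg
GRB2: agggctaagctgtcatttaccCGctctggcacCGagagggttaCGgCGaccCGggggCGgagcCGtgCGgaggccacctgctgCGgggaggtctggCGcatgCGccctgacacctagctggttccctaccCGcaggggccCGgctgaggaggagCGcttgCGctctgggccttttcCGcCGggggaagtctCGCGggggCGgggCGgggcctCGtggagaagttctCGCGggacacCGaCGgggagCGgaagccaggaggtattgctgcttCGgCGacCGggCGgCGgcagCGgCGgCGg
RPTOR: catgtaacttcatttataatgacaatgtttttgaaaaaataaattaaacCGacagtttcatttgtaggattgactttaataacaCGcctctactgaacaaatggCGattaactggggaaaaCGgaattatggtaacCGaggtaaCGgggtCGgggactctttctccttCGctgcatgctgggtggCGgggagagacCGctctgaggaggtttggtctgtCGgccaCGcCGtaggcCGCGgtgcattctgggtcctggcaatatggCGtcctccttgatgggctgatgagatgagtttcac
These windows lie at chr17:81131905-81132204 for AATK, chr17:75405629-75405928 for GRB2 and chr17:80544588-80544887 for RPTOR. The single AATK window belongs to a start site 34267 bases inside the 5′ end of the gene, so the outermost AATK start is not shown.

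The 3 windows differed widely in CpG content. The GRB2 window held 35 CpG in 300 bases at a GC content of 72.3%, and 87.3% of 35116 promoter windows of this length held that many or fewer. The RPTOR window held 16 CpG at 48% GC, close to the median of 14. The AATK window held 4 CpG at 60% GC, and 29.6% of windows held that many or fewer. At least 1 CpG was found in 96.0% of all windows, so its presence alone sets no gene apart. Methylation of these windows was not analysed here.

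**Figure D1:**
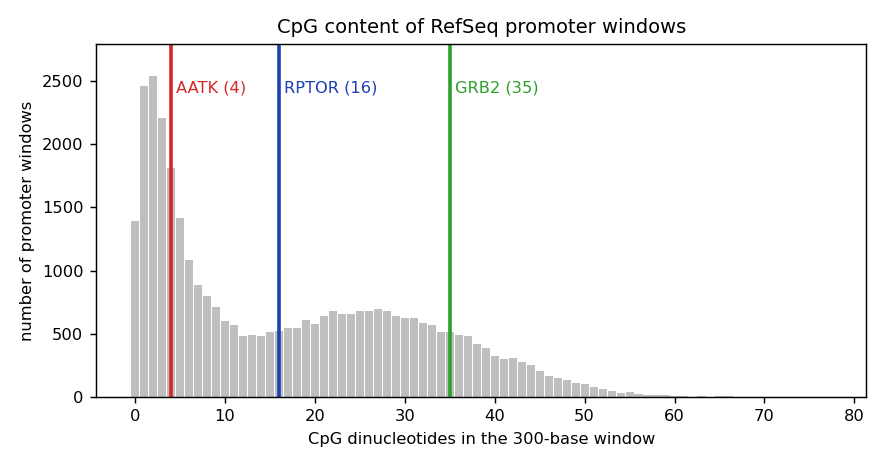
Number of RefSeq promoter windows of 300 bases (vertical axis) by the number of CpG dinucleotides they hold (horizontal axis). The lines mark AATK (4), RPTOR (16) and GRB2 (35), which lie in the CpG-poor peak, between the peaks and in the CpG-rich part of the distribution. The AATK window belongs to a start site inside the gene, while the other windows lie at the 5′ ends of their genes.

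AATK was listed at 4.57 FPKM in the larger table and 8.73 FPKM in the smaller. It was the gene of the 3 with the greatest difference, and with 1 FPKM added to both values its log2 ratio was -0.80. The smaller table's value, as deposited, was 1.91 times that of the larger. AATK ranked 7517 of 16824 identifiers in the larger table and 5203 of 15167 in the smaller, a mid-range level in both. No column says whether a value is of input or precipitate. Fewer cells with AATK RNA, less AATK RNA per cell and a different recovery in a precipitate therefore cannot be told apart.

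GRB2 was listed at 44.0 FPKM in the larger table and 39.7 FPKM in the smaller, a log2 ratio of 0.14. With ranks of 1480 and 1640 it stood within the top 8.80% and 10.8% of identifiers. GRB2 was the most abundant of the 3 genes per length in both tables.

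RPTOR was listed at 19.0 FPKM in the larger table and 18.2 FPKM in the smaller, a log2 ratio of 0.06. Its ranks were 3290 and 3234, within the top 19.6% and 21.3% of identifiers. Relative to the median ratio of all genes the RPTOR difference was 0.01, so no direction can be given for it.

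The order of the levels per length was GRB2, RPTOR, AATK in both tables. GRB2 had 2.32 times the FPKM of RPTOR in the larger table and 2.19 times in the smaller. RPTOR had 4.15 and 2.08 times the FPKM of AATK. The distance between GRB2 and RPTOR was thus nearly the same in the tables, while that between RPTOR and AATK was wider in the larger table. Whether neighbours in this order differ beyond replicate spread could not be tested.

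**Figure D2:**
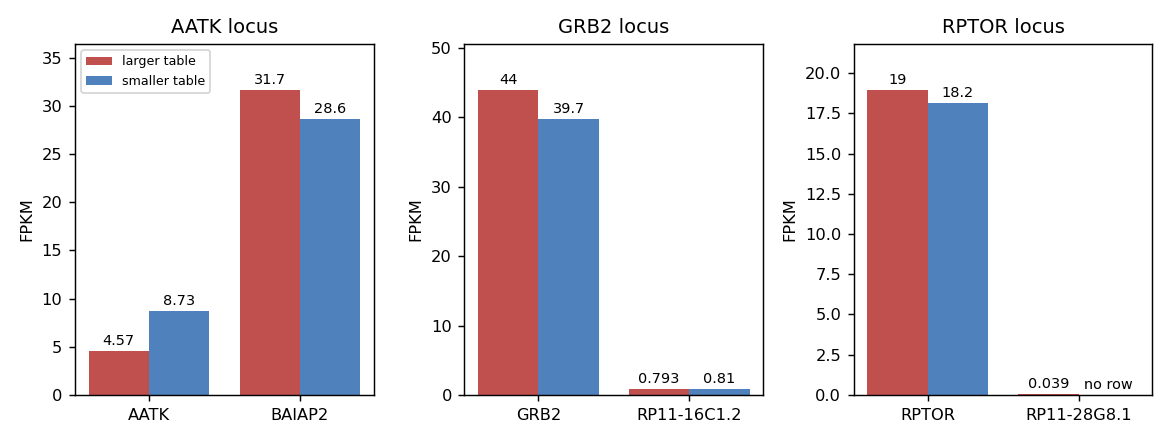
FPKM (vertical axes, each with its own scale) of AATK, GRB2 and RPTOR and of the identifier that shares each locus, in the larger table (left bar) and the smaller table (right bar), 1 value per bar and no error. AATK is lower in the larger table, at 4.57 against 8.73 FPKM, beside a partner at 31.7 and 28.6 FPKM.

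None of the 3 genes was 2-fold apart once 1 FPKM had been added to both values. Over the 7135 genes whose mean of both tables exceeded the median, 4.93 FPKM, 1.7% were at least 2-fold higher in the larger table and 0.869% at least 2-fold lower. Against genes of like level, defined as a mean FPKM within 2-fold of the gene's own, AATK stood low: 160 of 4238 such genes, or 3.78%, had a ratio as low or lower, and the 5th percentile was -0.69. GRB2 stood at the middle, with 62.6% of 2252 genes of like level at or below its ratio. RPTOR did too, with 47.5% of 3397 genes. These shares place each gene within the spread across genes and are not a measure of replicate error.

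**Figure D3:**
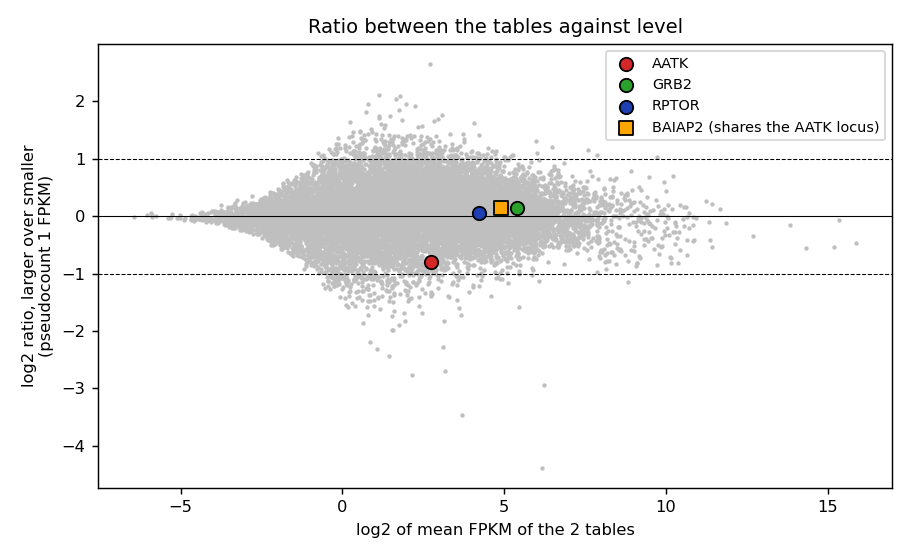
Log2 ratio of larger over smaller table (vertical axis, pseudocount 1 FPKM) against the log2 of the mean FPKM (horizontal axis) for the 14270 identifiers in both tables (grey). Dashed lines mark 2-fold. AATK lies at -0.80 near the lower edge of the cloud, while RPTOR at 0.06, GRB2 at 0.14 and BAIAP2, a gene that shares the AATK locus, at 0.14 lie in its middle.

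In the tables each of the 3 genes shared its locus string with 1 other identifier, and fragments at shared loci could be divided between genes upstream. The partner of AATK was BAIAP2 (ENSG00000175866), which encodes IRSp53, an adaptor that curves membranes and links them to actin. AATK (ENSG00000181409) and BAIAP2 were given the interval 81035122 to 81183164. In RefSeq they run towards each other and overlap by 140 bases at their 3′ ends, and at its other end AATK overlaps PVALEF by 715 bases.

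BAIAP2 was listed at 31.7 FPKM in the larger table and 28.6 FPKM in the smaller, a log2 ratio of 0.14. It thus differed in the opposite direction from AATK, and the direction held after subtracting the median ratio of all genes. BAIAP2 had 6.93 times the FPKM of AATK in the larger table and 3.28 times in the smaller. The sum of both was nearly level, at 36.3 and 37.4 FPKM, a log2 ratio of -0.04, of which AATK made up 12.6% and 23.4%. Since FPKM is per length, this sum does not count fragments. How the authors' tool divided fragments between AATK and BAIAP2 was not tested.

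The gap between the log2 ratios of BAIAP2 and AATK was 0.94. Among 349 loci with exactly 2 identifiers, both above the median level, the median gap was 0.35, and 26 loci, or 7.45%, had a gap at least as wide.

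The partners of GRB2 and RPTOR were near the floor. RP11-16C1.2 (ENSG00000264853) shared the interval 75318076 to 75405709 with GRB2 (ENSG00000177885) and was listed at 0.79 and 0.81 FPKM. RP11-28G8.1 (ENSG00000262833) shared 80544819 to 80971213 with RPTOR (ENSG00000141564) and was listed in the larger table, at 0.039 FPKM, with no row in the smaller. GRB2 made up 98.2% and 98.0% of the summed FPKM at its locus, and RPTOR 99.8% in the larger table. Adding the partner left the log2 ratio of GRB2 at 0.14 and that of RPTOR at 0.06.

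The surroundings of the 3 genes also differed between the tables. Within 1 Mb of the AATK locus start, 35 neighbours were above the median level, 12 higher and 23 lower in the larger table, with a median log2 ratio of -0.25. Over all genes above the median level, 57.2% were higher and 42.8% lower. Of these neighbours SLC25A10, at -0.81, was lower than AATK. The nearest listed genes outside the locus were BAIAP2-AS1, at 0.93 and 1.42 FPKM in the larger and smaller table, and CEP131, a centrosome protein, at 6.24 and 8.42 FPKM. Both, like AATK, had the lower value in the larger table.

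RPTOR stood above most of its neighbours. Of its 19 neighbours above the median level, 5 were higher and 14 lower in the larger table, with a median of -0.25, and 15 had a lower ratio than RPTOR. AATK is one of these neighbours and the lowest of them. The locus starts of RPTOR and AATK are 490 kb apart, so their 1 Mb windows overlap and hold many of the same genes. Their medians are therefore not independent. On the flank below RPTOR in coordinates the nearest listed gene was NPTX1, a neuronal pentraxin, at 4.50 and 5.40 FPKM. On the other flank were CHMP6, a subunit of the ESCRT-III membrane-scission machinery, at 2.19 and 3.19 FPKM, and CTD-2561B21.8, which shares the CHMP6 locus and was higher in the larger table, at 0.33 and 0.17 FPKM.

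Of the GRB2 neighbours above the median level, 18 were higher and 25 lower in the larger table, with a median of -0.06. Over all genes above that level, 57.2% were higher and 42.8% lower. On the flank above GRB2 in coordinates, the nearest listed gene, TMEM94, was listed at 18.1 and 26.3 FPKM. On chromosome 17 as a whole 46.6% of 968 genes were higher in the larger table, against 54.8% of all genes in both tables, while 45.2% of all genes were lower.

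**Figure D4:**
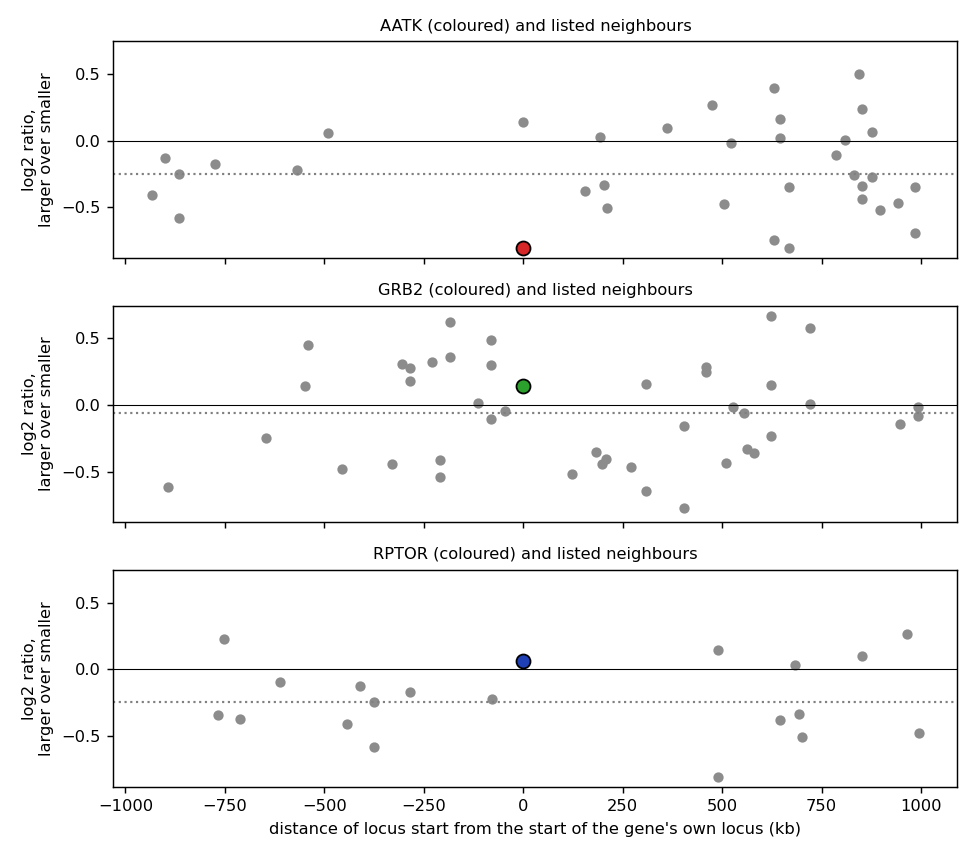
Log2 ratio of larger over smaller table (vertical axes, pseudocount 1 FPKM) for AATK, GRB2 and RPTOR (coloured, at distance 0) and for listed neighbours above the median level (grey), by distance of locus start in kb (horizontal axis). The dotted lines are the neighbours' medians, -0.25, -0.06 and -0.25. The windows of AATK and RPTOR overlap and hold many of the same genes. AATK lies below its median, and GRB2 and RPTOR lie above theirs.

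All 3 genes lie in gene-rich surroundings, with 66 other listed identifiers starting within 1 Mb for AATK, 64 for GRB2 and 42 for RPTOR. When the 7135 genes above the median level were split into 5 classes of equal size by this number, AATK and GRB2 fell in the densest class, whose median log2 ratio was -0.14. RPTOR fell in the next, with a median of -0.03. The class with the fewest neighbours had a median of 0.32. Within the densest class, 45 of 1427 genes, or 3.15%, had a ratio as low as that of AATK or lower. Promoter CpG content moved less with the ratio: among 3864 such genes with a single promoter window, the medians of 5 classes from few to many CpG were 0.09, 0.13, 0.12, 0.11 and 0.00.

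The AATK family and its partners, a list of 14 genes, had 13 in both tables. Of these 6 were higher and 7 lower in the larger table, a share of 46.2% higher beside 54.8% over all genes, with a median log2 ratio of -0.06 beside 0.05. No member was 2-fold apart, beside 2.04% of all genes at least 2-fold higher and 1.68% at least 2-fold lower. AATK had the lowest ratio of the list. Without AATK, 6 genes were higher and 6 lower, with a median log2 ratio of 0.02.

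Its relatives differed from it in level. LMTK2, a paralog that acts in endosomal transport, was listed at 9.93 FPKM in the larger table and 7.83 FPKM in the smaller. LMTK2 therefore stood above AATK in the larger table, at 2.17 times its FPKM, and below it in the smaller, at 0.90 times. LMTK3 was low in both, at 0.76 and 1.28 FPKM.

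CDK5, the kinase that phosphorylates AATK in neurons, was listed at 12.4 FPKM in the larger table and 18.1 FPKM in the smaller. Its activator p35, encoded by CDK5R1, was near the floor, at 1.28 and 1.08 FPKM. RAB11A, a GTPase of recycling endosomes, was listed at 35.2 and 27.7 FPKM, and its paralog RAB11B at 16.5 and 23.8 FPKM. The paralogs thus differed in opposite directions, and each shared its locus with other identifiers, as did CDK5. Of the catalytic subunits of protein phosphatase 1, PPP1CB (36.5 and 19.7 FPKM) and PPP1CC (48.3 and 35.2 FPKM) were higher in the larger table and PPP1CA (116 and 149 FPKM) was lower. PPP1CA and PPP1CB each shared a locus with other identifiers, while PPP1CC did not.

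The GRB2 list held 49 genes from adaptors to RAF and MEK kinases, of which 35 were in both tables. There were 21 genes higher and 14 lower in the larger table, or 60% higher beside 54.8% of all genes, with a median log2 ratio of 0.16 beside 0.05. GRB2 itself, at 0.14, was close to the list's median. None was 2-fold apart on the log2(FPKM + 1) scale, beside 2.04% of all genes at least 2-fold higher and 1.68% at least 2-fold lower. The GRB2 paralog GRAP, an adaptor of lymphoid cells, had a row in the larger table, at 0.086 FPKM, and GRAP2 and GRAPL had none.

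Among proteins that bind GRB2, the receptor adaptor SHC1 was the most abundant per length, at 89.8 FPKM in the larger table and 90.2 FPKM in the smaller. Its FPKM was 2.04 and 2.27 times that of GRB2. The docking proteins were far below GRB2, with GAB2 at 4.76 and 4.18 FPKM and GAB1 at 0.73 FPKM in both. FRS2, which couples FGF receptors to GRB2, was listed at 3.83 and 1.89 FPKM, the highest ratio of these partners at 0.74. IRS1, the insulin receptor substrate, was listed at 2.53 and 2.19 FPKM.

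The exchange factors that GRB2 carries to RAS were also low. SOS1 was listed at 2.15 FPKM in the larger table and 2.72 FPKM in the smaller, and SOS2 at 1.23 and 0.77 FPKM. GRB2 had 20.5 and 14.6 times the FPKM of SOS1. The phosphatase PTPN11 was listed at 12.3 and 12.6 FPKM, and the ubiquitin ligase CBL, which attenuates receptors, at 14.9 and 9.74 FPKM. SHC1, GAB2, SOS1, PTPN11 and CBL each shared a locus with another identifier, while GAB1, FRS2, IRS1 and SOS2 did not.

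Downstream of the exchange factors, HRAS stood above NRAS in both tables. HRAS was listed at 42.0 FPKM in both, at nearly the same level as GRB2. NRAS was listed at 18.1 FPKM in the larger table and 10.1 FPKM in the smaller. Of the MEK kinases, MAP2K1 was listed at 22.3 and 19.4 FPKM and MAP2K2 at 130 and 174 FPKM. MAP2K1 shared its locus with other identifiers, while HRAS, NRAS and MAP2K2 did not.

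RPTOR belongs to a list of 12 genes of the mTOR complexes and their assembly factors, and all 12 were in both tables. There were 5 genes higher and 7 lower in the larger table, or 41.7% higher beside 54.8% of all genes, with a median log2 ratio of -0.18 beside 0.05. With 1 FPKM added no gene was 2-fold apart, beside 2.04% of all genes at least 2-fold higher and 1.68% at least 2-fold lower. RPTOR, at 0.06, was among the 5 higher. Without RPTOR, 4 genes were higher and 7 lower, with a median log2 ratio of -0.28. Among the 5 list genes that share no locus the median was 0.21.

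Within mTORC1 the subunits stood in the order MLST8, RPTOR, MTOR in both tables. MTOR, the catalytic subunit, was listed at 9.04 FPKM in the larger table and 7.42 FPKM in the smaller, so RPTOR had 2.10 and 2.45 times its FPKM. MLST8, a beta-propeller subunit shared with mTORC2, was listed at 39.6 and 60.6 FPKM. AKT1S1, the inhibitory subunit PRAS40, was listed at 25.5 and 33.2 FPKM, and the inhibitor DEPTOR was near the floor at 0.056 and 0.70 FPKM, a fold of 0.080 as deposited. MLST8 and AKT1S1 shared their locus with other identifiers, while MTOR and DEPTOR did not.

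RICTOR, which takes the place of raptor in mTORC2, was listed at 5.83 FPKM in the larger table and 5.74 FPKM in the smaller. RPTOR had 3.26 and 3.16 times the FPKM of RICTOR, a balance that hardly differed between the tables. TTI1 and TELO2, partners in a chaperone that assembles mTOR, differed in opposite directions, TTI1 at 13.6 and 8.41 FPKM and TELO2 at 22.6 and 30.2 FPKM. TTI2, another assembly factor of the list, was lower in the larger table like TELO2, at 9.44 and 11.7 FPKM. RICTOR, TELO2 and TTI2 each shared a locus with another identifier or more, while TTI1 did not.

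Of 36 genes that regulate mTORC1 from above, 34 were in both tables, 16 higher and 18 lower in the larger, or 47.1% higher beside 54.8% of all genes, with a median log2 ratio of -0.04. LAMTOR3, a subunit of the Ragulator complex that anchors Rag GTPases on lysosomes, was the member 2-fold apart with 1 FPKM added, at 5.62 and 1.58 FPKM and a log2 ratio of 1.36. This 1 of 34 stands beside 2.04% of all genes at least 2-fold higher. The other Ragulator subunits were mixed, with LAMTOR5 higher in the larger table (47.7 and 40.6 FPKM) and LAMTOR1 (73.9 and 79.0 FPKM), LAMTOR2 (29.5 and 41.0 FPKM) and LAMTOR4 (25.9 and 41.2 FPKM) lower. The Rag GTPases bind raptor: RRAGA was listed at 25.9 and 21.8 FPKM, RRAGC at 6.69 and 3.58 FPKM and RRAGB at 2.88 and 3.86 FPKM, and RRAGD had no row. RHEB, the GTPase that activates mTORC1, was listed at 56.9 and 35.2 FPKM, and its paralog RHEBL1 at 4.40 and 9.31 FPKM, a fold of 0.47 as deposited. The RHEB inhibitor TSC2 was listed at 24.3 and 29.7 FPKM and its partner TSC1 at 6.97 and 9.59 FPKM. LAMTOR1, LAMTOR4, LAMTOR5, RRAGC and TSC2 each shared a locus with another identifier or more. LAMTOR2, LAMTOR3, RRAGA, RRAGB, RHEB, RHEBL1 and TSC1 did not.

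A list of 20 substrates and effectors of mTORC1 and S6 kinase was in both tables in full, with 12 genes higher and 8 lower in the larger, or 60% higher beside 54.8% of all genes, and a median log2 ratio of 0.14. The 3 that were 2-fold apart with 1 FPKM added were all higher in the larger table, where 2.04% of all genes were at least that much higher. EIF4E, the cap-binding translation initiation factor that the 4E-BP proteins hold, had 7.95 and 3.31 FPKM and a log2 ratio of 1.05. MITF, a transcription factor kept in the cytoplasm by mTORC1, had 11.6 and 5.22 FPKM and a log2 ratio of 1.01. EIF4EBP2, a repressor of EIF4E, had 17.6 and 8.28 FPKM and a log2 ratio of 1.00. After subtracting the median ratio of all genes these became 1.00, 0.96 and 0.95, all just under 2-fold.

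EIF4EBP1, another 4E-BP protein that raptor presents to mTOR, was listed at 57.9 FPKM in the larger table and 71.0 FPKM in the smaller, opposite in direction to EIF4EBP2. The S6 kinase RPS6KB1 was listed at 1.53 and 2.89 FPKM and RPS6KB2 at 37.0 and 49.1 FPKM. ULK1, the autophagy kinase, was listed at 14.4 and 19.3 FPKM, and LARP1, a repressor of ribosomal protein mRNAs, at 68.7 and 60.4 FPKM. RPS6KB1 and ULK1 each shared a locus with another identifier or more, while the other targets named here did not.

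**Figure D5:**
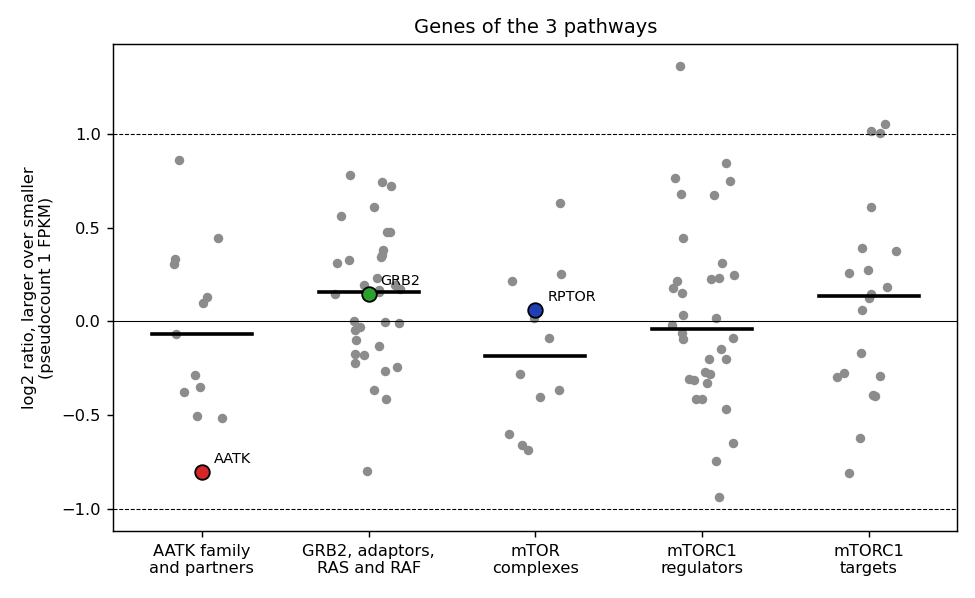
Log2 ratio of larger over smaller table (vertical axis, pseudocount 1 FPKM) for the genes of 5 lists in both tables (grey points, spread sideways for visibility), with list medians (black bars) and 2-fold (dashed). AATK, at -0.80, is the lowest of its list, GRB2, at 0.14, sits at its list's median of 0.16, and RPTOR, at 0.06, lies above its list's median of -0.18.

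Genes with the most similar pair of values were found by Euclidean distance of log2(FPKM + 1) over the 2 tables. For AATK these were TOP1MT (4.78 and 8.55 FPKM), PPL (4.61 and 9.13 FPKM) and SIRT3 (4.74 and 8.38 FPKM), at distances of 0.06 to 0.07. For GRB2 they were ABHD14B, ZDHHC5 and IGFBP6, at distances up to 0.03. For RPTOR they were TIMM44, RPP30 and CASP2, at distances up to 0.01. None of these 9 genes lies on chromosome 17, and 2 tables are too few for a pattern of co-variation.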

How the data were processed

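Per the labels, 6 samples of U2OS RNA formed 4 groups. The 2 tables deposited by the authors held FPKM per gene, a unit scaled to transcript length and library size, per the file headers, which named no sample. Which tool computed FPKM was not given in the sources used here. Tools listed by the submitters' processing notes were BWA 0.7.13, cutadapt 1.12 and MACS 1.4.2, with build hg38 and no roles. Of all identifiers, 47.5% shared a locus string with another. Since FPKM is scaled to library size, abundant RNAs move the others.

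The tables were joined by identifier. The log2 ratio was log2((larger + 1)/(smaller + 1)), with a pseudocount of 1 FPKM and no level filter unless stated; 1 was added to locus starts. Genes found in a single table got no ratio. Depth was unknown, so no interval was given. The members and gene lists were chosen with earlier results of these data known. Genes named were the 3 members, their locus partners, paralogs and nearest neighbours, list members 2-fold apart (up to 4 per list) or binding a member, and the 3 nearest by level. Other list members (CDK5, RAB11B, PPP1CA, PPP1CB, PPP1CC, HRAS, NRAS, the MEK genes, DEPTOR, RICTOR, TTI1, TTI2, TELO2, LAMTOR1, LAMTOR2, LAMTOR4, LAMTOR5, RHEB, RHEBL1, TSC1, TSC2 and RPS6KB2) and the neighbour SLC25A10 were named after their values were seen. Promoter windows came from RefSeq (GRCh38.p14), 1 for each of the 3 genes. Some list members and neighbours are not reported here. The code for the ratio and the count of 2-fold genes was checked on simulated data. These had planted changes larger than 2-fold and mean levels drawn from genes above AATK. The check therefore does not bear on the calls of lower genes or smaller differences. Python 3.11.15, pandas 2.3.3, numpy 2.4.6 and matplotlib 3.10.9 were used.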

Additional observations from a re-analysis of the deposited data

How the results depend on the processing

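No paired analysis was possible because no column names a sample or replicate, and the alternatives planned for replicates of the immunoprecipitates (replicate block, each replicate left out) were not run. Of 99 values recomputed under the other settings, 85 stayed within 0.1 on the log2 scale, or within 1.5 times for a count, and 14 moved further. Several settings can hardly change a single gene, so these numbers do not measure robustness. The log2 ratio of AATK became -0.92 with a pseudocount of 0.1 FPKM, -0.93 with none (chosen after seeing the data) and -0.042 when AATK was summed with BAIAP2. The first of these changes follows from the smaller pseudocount. The last follows from adding BAIAP2, which had the higher level and a ratio of opposite sign. The ratios of GRB2 and RPTOR moved by less than 0.1 under every setting run, and RPTOR centred on the median of all genes was 0.01. The mTOR complex median became 0.21 among genes sharing no locus, where 5 of its 12 genes remain, and the cause was not tested. With a pseudocount of 0.1 FPKM, 1 gene of the GRB2 list came to be at least 2-fold higher and 1 at least 2-fold lower in the larger table, and 1 gene each of the mTOR complex, regulator and target lists came to be at least 2-fold lower. Above the median level 0 regulators were at least 2-fold higher, since LAMTOR3 lies below it, and after centring 0 targets were, against 3. Of the 7135 genes above the median level, 121 were at least 2-fold higher and 62 at least 2-fold lower. Without a level filter these counts were 291 and 240 of 14270 genes. Above the median level they were 179 and 97 with a pseudocount of 0.1 FPKM. Both rises follow by construction. After centring they were 88 and 79. The list counts with a pseudocount of 0.1 FPKM had no level filter, and no count over all genes without a filter was made at that setting. With no depth and no replicate, the error of each value is unknown.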
